A study of Homo sapiens with 6 samples.

Results

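ZEB1 and 7 other transcription factors that drive epithelial to mesenchymal transition (EMT), namely ZEB2, SNAI1, SNAI2, TWIST1, TWIST2, PRRX1 and TCF4, were followed in a chondrocyte line that was made to overexpress ZEB1. The members were chosen by name, with earlier results of these data known. Matching by symbol to Entrez gene IDs found 8 of 8 among the 28395 genes of the count table. The samples were TC28a2 cells transfected with a ZEB1 overexpression vector (3 libraries) and TC28a2 cells transfected with a control vector (3 libraries), both collected 48 h after transfection. TC28a2 is an immortalised human chondrocyte line, so both groups share 1 cell line. The promoter of the vector, its ZEB1 isoform and the share of cells that took it up are not stated in the labels. RNA was read by DRUG-seq, a pooled and low-cost form of RNA-seq, and nothing in the labels says that replicates were separate cultures, so p-values reflect the spread among these 6 libraries alone, and that spread may be technical.

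EMT is the programme by which epithelial cells lose their junctions and gain migratory, mesenchymal properties. ZEB1 and ZEB2 are paired zinc finger and homeodomain repressors, SNAI1 and SNAI2 (Snail and Slug) are zinc finger repressors, and both families bind E-boxes, of which CAGGTG, read as CACCTG on the opposite strand, is the best known form. TWIST1, TWIST2 and TCF4 are basic helix-loop-helix factors that bind E-boxes as dimers, TCF4 being one of the E proteins that serve as partners, and PRRX1 is a homeodomain factor of limb and craniofacial mesenchyme. Cartilage cells are mesenchymal in origin, so mesenchymal genes are part of their ordinary state.

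ZEB1 was the member that rose. Per kilobase of transcript it made up 96.4% to 98.1% of the summed level of the 8 members with the ZEB1 vector, against 6.84% to 9.41% in controls. Without length scaling, its share of the 8 members' counts was 98.0% to 98.9% with the ZEB1 vector and 11.8% to 15.5% in controls. The other 7 members stayed in the range of 4.44 to 42.4 CPM in every library, and none passed the threshold of an adjusted p of 0.05. CPM here are counts scaled to each library's total over tested genes and its TMM factor, also for genes that were not tested. SNAI2 and PRRX1 were lower in all 3 ZEB1 vector libraries than in any control, with log2 fold changes of -1.02 (SE 0.49) and -1.11 (SE 0.40), but their adjusted p-values were 0.536 and 0.347. ZEB2, TWIST1, TWIST2 and TCF4 overlapped between the groups, with log2 fold changes of -0.18 to 0.25, and SNAI1 overlapped with -0.45.

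The ZEB1 vector libraries were shallower, with 1277632 to 3316228 counts against 5359200 to 5878640 counts in the control libraries, so that 3 counts, taken as the floor, stood for 0.905 to 2.35 CPM with the ZEB1 vector and 0.510 to 0.560 CPM in controls when scaled by library total alone. In log2 CPM across tested genes, every ZEB1 vector library had a higher correlation with each control than with either other library of its group. For replicates 1, 2 and 3 in turn, the range over controls was 0.8808 to 0.8853, 0.9055 to 0.9085 and 0.9477 to 0.9513. Within the ZEB1 vector group the pairs 1 and 2, 1 and 3, and 2 and 3 had 0.8539, 0.8747 and 0.8995. Replicate 1 was the shallowest of this group and replicate 3 the deepest. Library pairs of 1 group differed by a chi-square per degree of freedom of 6.30 to 11.4, so none was a repeat of another within sampling noise. Of 15 chondrocyte markers 1, SOX9, had enough counts to be tested, and COL9A1 and CNMD were at 0 in every library. Summed over the list, levels were 68.8 to 82.6 CPM with the ZEB1 vector and 56.6 to 88.4 CPM in controls. SOX9 made up most of these sums, at 61.1 to 78.2 CPM with the ZEB1 vector and 54.2 to 82.9 CPM in controls. The cartilage matrix genes COL2A1 and ACAN, named after their counts were seen, had 0 to 8 counts a library. The keratins KRT18 (549 ± 51.4 CPM with the ZEB1 vector and 576 ± 8.19 CPM in controls, SD, n = 3 each) and KRT8 carried the epithelial marker list, in which EPCAM and CDH1 had 0 to 10 counts a library and KRT5 had 0. Leukocyte markers summed to 6.22 to 18.8 CPM with the ZEB1 vector and 14.9 to 18.9 CPM in controls, with the T cell marker CD3E at 0 throughout. Endothelial markers summed to 8.64 to 9.003 CPM with the ZEB1 vector and 1.44 to 2.77 CPM in controls. PECAM1 had 3.55, 7.72 and 6.55 CPM with the ZEB1 vector and 1.44, 1.09 and 1.80 CPM in controls. TEK had 5.33 CPM, from 6 counts, in ZEB1 vector replicate 1 and 0 counts in the other libraries, and CDH5 was at 0 in all 3 ZEB1 vector libraries. The part that any of these markers, or depth, has in the values that follow was not tested.

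The letters upstream of the ZEB1 gene are shown because the E-box is the site that ZEB1, the Snail factors and the helix-loop-helix members are known to bind, and PRRX1 is shown beside it as the member with the lowest fold change. Both are the 250 bases before a transcript start in RefSeq (GRCh38.p14), for ZEB1 the first of its 7 and for PRRX1 its single entry, which lies inside the annotated gene span given with its values; they are read 5′ to 3′ on the plus strand, with capitals marking CAGGTG or CACCTG. The ZEB1 window is chr10:31318167-31318416 and the PRRX1 window is chr1:170663881-170664130.
ZEB1: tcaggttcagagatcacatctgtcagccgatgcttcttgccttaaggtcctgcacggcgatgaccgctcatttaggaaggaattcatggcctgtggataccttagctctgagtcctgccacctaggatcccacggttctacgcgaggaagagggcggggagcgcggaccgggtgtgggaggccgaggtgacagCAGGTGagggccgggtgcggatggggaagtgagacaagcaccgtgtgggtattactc
PRRX1: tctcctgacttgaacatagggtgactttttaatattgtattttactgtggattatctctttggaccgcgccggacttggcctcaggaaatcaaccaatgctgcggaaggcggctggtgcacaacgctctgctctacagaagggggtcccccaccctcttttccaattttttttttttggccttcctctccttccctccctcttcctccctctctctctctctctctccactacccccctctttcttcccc

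In the ZEB1 window the capitals begin 57 bases before the start. RefSeq windows were found for 5 members, and 2 of the 7 ZEB1 windows held CAGGTG or CACCTG, with 3 matches in all, and 2 others held CAGGTA or TACCTG, the Z-box form. The single windows of PRRX1, ZEB2 and TWIST2 and the 10 windows of TCF4 held neither. Of all 35116 upstream windows of this length, 17.5% held the E-box letters and 7.99% the Z-box letters. A match is only a description of the letters in the window.

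On chromosome 10 (31318417 to 31529804, as all gene positions here in GRCh38.p14), ZEB1 itself (Entrez gene 6935) had 12267, 14047 and 6894 CPM in ZEB1 vector replicates 1, 2 and 3, against 32.6, 20.8 and 21.4 CPM in control vector replicates 1, 2 and 3. All 3 ZEB1 vector libraries lay far above the controls, and replicate 3 was the lowest of them. The log2 fold change was 8.79 (SE 0.31, 95% interval 8.15 to 9.44), with an adjusted p of 2.37e-13 in edgeR's quasi-likelihood test. That made 1 of 8 members called higher. Over all 11329 tested genes 0.00883% were called higher, which was ZEB1 alone, the gene that the vector carries, and 0% lower. The share over all genes is therefore no separate background for this call. Without adjustment, 5.83% of tested genes were higher with a p under 0.05. In 6.96% of all tested genes the 3 ZEB1 vector libraries lay above all 3 controls. In raw counts ZEB1 ranked 1, 1 and 3 among all genes in ZEB1 vector replicates 1, 2 and 3, and 4854, 6177 and 6153 in controls. It made up 1.08%, 1.35% and 0.698% of all counts in the ZEB1 vector libraries. Per kilobase of transcript, using the median length of a gene's protein-coding transcripts, ZEB1 ranked 59, 40 and 85 among 25455 genes with a length in ZEB1 vector replicates 1, 2 and 3, against ranks of 6342, 7510 and 7446 in the controls. On the same scale ZEB1 was 98.1%, 97.9% and 96.4% of the summed level of the 8 members with the ZEB1 vector, and 9.41%, 6.84% and 7.38% in controls. Reads from the vector and from the cell's own gene were not told apart, and ZEB1-AS1, a divergent RNA that overlaps the 5′ end of ZEB1, had 0, 0 and 1 counts in ZEB1 vector libraries and 4, 4 and 10 in controls. The labels do not say whether counting used strand.

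**Figure D1:**
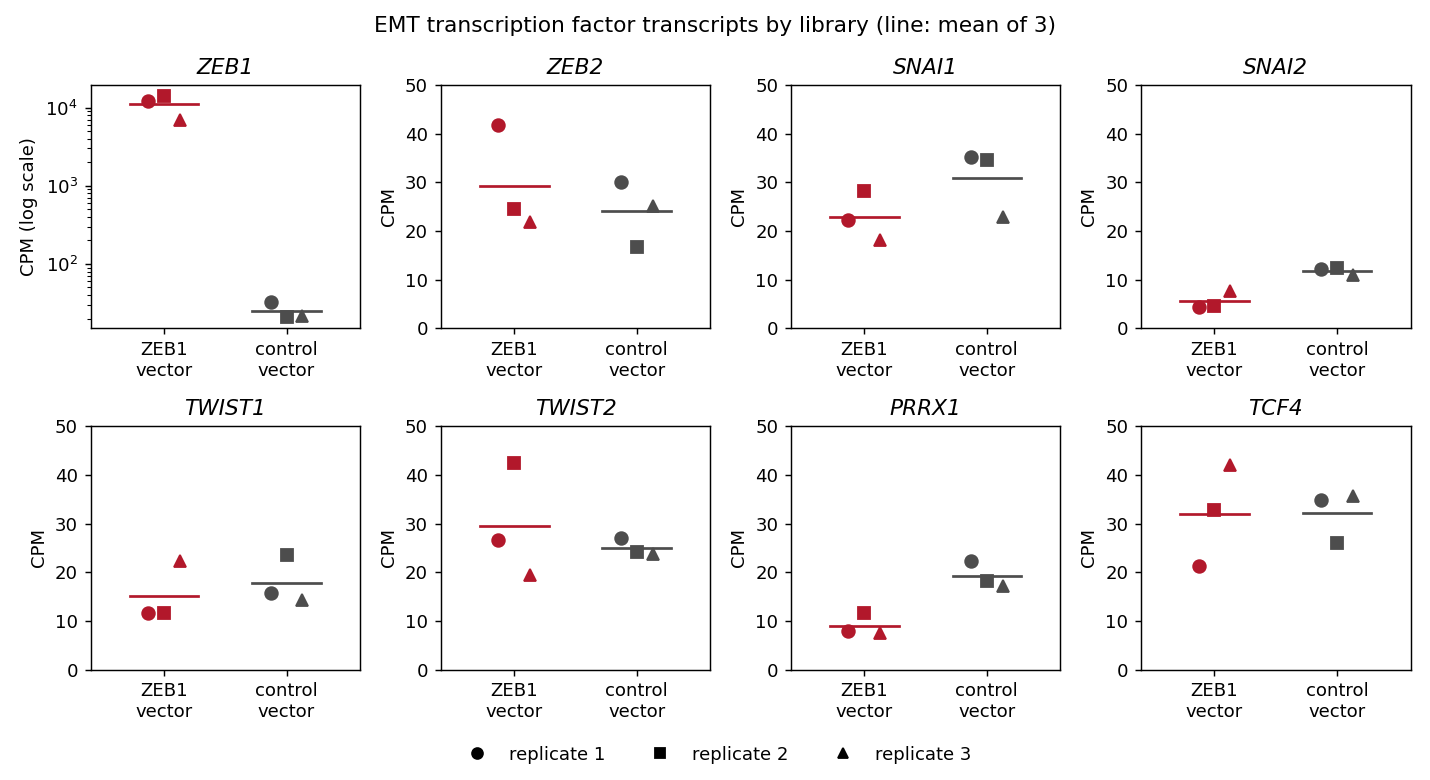
TMM-scaled CPM of each of the 8 EMT transcription factors (y axis) in ZEB1 vector and control vector libraries (x axis); symbols mark the replicate number and lines the mean of 3. The ZEB1 axis is logarithmic; SNAI2 and PRRX1 are the panels besides ZEB1 in which the groups do not overlap.

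ZEB2, the paralog of ZEB1 (Entrez 9839, chromosome 2, 144384081 to 144520119), had 41.8, 24.4 and 21.7 CPM in ZEB1 vector replicates 1, 2 and 3, against 30.2, 16.8 and 25.1 CPM in control replicates 1, 2 and 3. The ZEB1 vector library with the highest value, replicate 1, was also the shallowest, with 47 ZEB2 counts, and the other two lay within the control range. The log2 fold change was 0.25 (SE 0.33, 95% interval -0.45 to 0.94; adjusted p = 0.874, edgeR), and it was -0.07 without ZEB1 vector replicate 1. Per kilobase, ZEB1 stood at 242, 473 and 261 times ZEB2 in the ZEB1 vector libraries, and at 0.889, 1.02 and 0.7002 times ZEB2 in the controls. With the control vector the paralogs overlapped on this scale. With the longest transcript in place of the median length they did not, at 3.97 CPM per kilobase for ZEB1 and 2.51 for ZEB2 in controls, the lowest ZEB1 value being 3.32 and the highest ZEB2 value 3.15.

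SNAI1, the Snail repressor (Entrez 6615, chromosome 20, 49982980 to 49988886), had 22.2, 28.3 and 18.2 CPM in ZEB1 vector replicates 1, 2 and 3, against 35.3, 34.6 and 22.8 CPM in control replicates 1, 2 and 3. ZEB1 vector replicates 1 and 3 were below every control, and replicate 2 lay between control replicates 3 and 2. The log2 fold change was -0.45 (SE 0.31, 95% interval -1.10 to 0.20), with an edgeR adjusted p of 0.710. SNAI2, the Slug repressor that is also active in migrating neural crest (Entrez 6591, chromosome 8, 48917598 to 48921429), had 4.44, 4.50 and 7.75 CPM in ZEB1 vector replicates 1, 2 and 3, against 12.2, 12.4 and 10.9 CPM in the controls. The groups did not overlap, but the ZEB1 vector values rested on 5, 7 and 26 counts, against 76, 68 and 67 counts in controls. The 95% interval of its log2 fold change was -2.05 to 0.0091, with an unadjusted p of 0.0519. Every library was also thinned to 1277632 counts in a single random draw, which was not repeated. In that draw SNAI2 had 5, 7 and 10 counts with the ZEB1 vector and 20, 23 and 8 in controls. The groups overlapped there through control replicate 3 alone, and how far this depends on the draw was not tested.

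TWIST1 (Entrez 7291, chromosome 7, 19113047 to 19117636), a factor of mesoderm and cranial suture development, had 11.6, 11.6 and 22.3 CPM in ZEB1 vector replicates 1, 2 and 3, against 15.7, 23.5 and 14.4 CPM in controls. ZEB1 vector replicates 1 and 2 lay below every control and replicate 3 above 2 of the 3, and the log2 fold change was -0.18 (SE 0.39, 95% interval -0.99 to 0.64; edgeR adjusted p = 0.929). TWIST2 (Entrez 117581, chromosome 2, 238848085 to 238910534), its dermal and osteogenic relative, had 26.7, 42.4 and 19.4 CPM in ZEB1 vector replicates 1, 2 and 3, against 26.9, 24.2 and 23.7 CPM in controls. Here ZEB1 vector replicate 2 was above and replicate 3 below every control. The TWIST2 log2 fold change was 0.22 (SE 0.32, 95% interval -0.45 to 0.89; edgeR adjusted p = 0.885), and it was -0.16 without ZEB1 vector replicate 2. TCF4, the E protein (Entrez 6925, chromosome 18, 55222185 to 55635957), had 21.3, 32.8 and 42.0 CPM in ZEB1 vector replicates 1, 2 and 3, against 34.8, 26.1 and 35.7 CPM in controls. The 3 ZEB1 vector values spanned wider than the controls on both sides, with means of 32.0 ± 10.4 CPM with the ZEB1 vector and 32.2 ± 5.33 CPM in controls (SD, n = 3 each). Its log2 fold change was 0.03 (SE 0.29, 95% interval -0.57 to 0.64; edgeR adjusted p = 0.985), and it took the opposite sign, at -0.24, without ZEB1 vector replicate 3.

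PRRX1 (Entrez 5396, chromosome 1, 170662768 to 170739421) had 7.997, 11.6 and 7.45 CPM in ZEB1 vector replicates 1, 2 and 3, against 22.3, 18.2 and 17.1 CPM in control replicates 1, 2 and 3. Every ZEB1 vector library lay below every control, and the means were 9.01 ± 2.24 CPM with the ZEB1 vector and 19.2 ± 2.72 CPM in controls (SD, n = 3 each). In counts these were 9, 18 and 25 with the ZEB1 vector and 139, 100 and 105 in controls. Thinned to equal depth in the same random draw, they were 9, 16 and 11 with the ZEB1 vector and 26, 27 and 22 in controls. The thinned groups still did not overlap. The 95% interval of the log2 fold change was -1.94 to -0.27. Besides ZEB1, PRRX1 was the one member whose unadjusted edgeR p-value passed 0.05, at 0.0118. At that level 3.57% of all tested genes, and 3.3% of the 3119 with control counts in the members' range, were lower. In edgeR fits the unadjusted p of PRRX1 was 0.0589 on the thinned counts and 0.0641 without control replicate 1, and that of SNAI2 was 0.0243 without ZEB1 vector replicate 3. Adjusted over all tested genes PRRX1 did not pass, and on leaving out single libraries its log2 fold change was -1.33 to -0.96 with adjusted p-values of 0.248 and above. In bulk RNA, fewer cells that express a gene and less RNA per cell cannot be told apart.

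**Figure D2:**
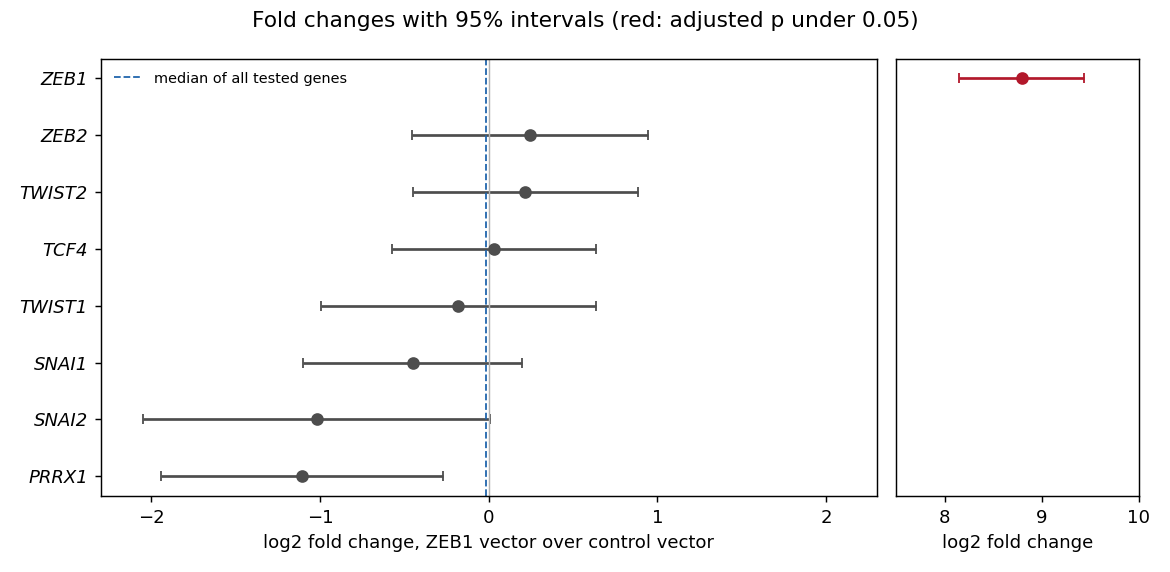
Log2 fold change of each member, ZEB1 vector over control vector (x axis), with its 95% interval from the edgeR fit; the right panel has its own range for ZEB1. ZEB1 stands at 8.79 and the other 7 members between -1.11 and 0.25, and the dashed line is the median of all tested genes, -0.01.

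Of the 7 members besides ZEB1, 4 had a log2 fold change below 0, against 51.5% of all tested genes, and their median was -0.18 against -0.01 over all 11329 tested genes. SNAI2 and PRRX1 were 2 of 7 with all ZEB1 vector libraries below all controls, where 8.16% of tested genes were, and 2 of 7 with a log2 fold change of -1 or lower, where 3.31% of tested genes were. Among the 3119 tested genes whose mean control count lay in the range of the 8 members, 70.3 to 193 counts, those shares were 8.4% and 1.96%. With 7 members, chosen with earlier results of these data known, these shares are a description. All 8 members passed the filter on low counts and standard errors of the 7 ran from 0.29 to 0.49, against a median of 0.33 over all tested genes. Summed over the 7, the level was 136, 156 and 139 CPM in ZEB1 vector replicates 1, 2 and 3, against 177, 156 and 150 CPM in controls, and the groups overlapped.

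The members did not vary together within the ZEB1 vector group. Relative to the control mean in log2 CPM, ZEB1 vector replicate 1 was the highest of its group for ZEB2 (0.83) and the lowest for TCF4 (-0.57). Replicate 2 was the highest for TWIST2 (0.76) and SNAI1 (-0.10), and replicate 3 the highest for TWIST1 (0.35), SNAI2 (-0.58) and TCF4 (0.39). Replicate 3 also had the lowest ZEB1 level, and with 3 libraries the part of depth and that of the ZEB1 level cannot be told apart.

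**Figure D3:**
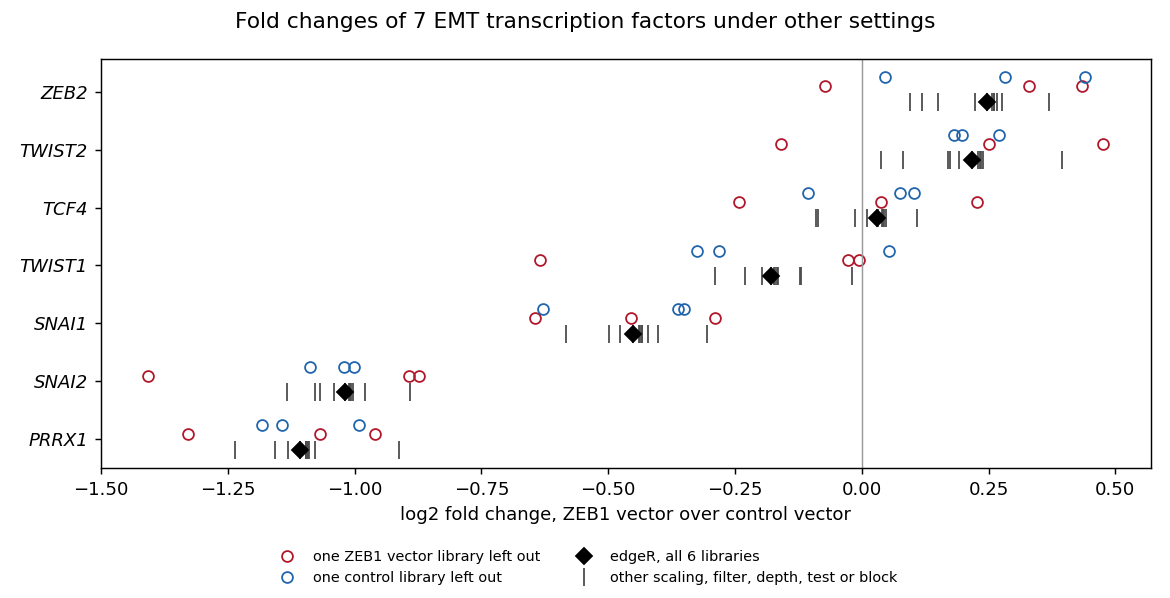
Log2 fold change of the 7 members besides ZEB1 (x axis, ZEB1 vector over control vector) with all 6 libraries (diamonds), with single libraries left out (circles, red for ZEB1 vector and blue for control libraries) and with other scaling, filter, depth, test or block (ticks). PRRX1, SNAI2 and SNAI1 stay below 0 throughout, while ZEB2, TWIST2, TCF4 and TWIST1 have points on both sides of 0.

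Levels of different genes were compared per kilobase only, apart from the rank and share of ZEB1 in counts given above. In controls TCF4 was first with 20.8 ± 3.44 CPM per kilobase, followed by TWIST2 (19.3 ± 1.36), SNAI1 (18.3 ± 4.15), TWIST1 (10.7 ± 2.97), ZEB2 (9.07 ± 2.55), ZEB1 (7.74 ± 2.06), SNAI2 (5.89 ± 0.39) and PRRX1 (5.49 ± 0.78), all SD with n = 3. Neighbours in this order overlapped between libraries, except ZEB1 and SNAI2, whose nearest values were 6.46 and 6.17 CPM per kilobase. The order depended on the length used: with each gene's longest transcript, SNAI1 (18.3) and TWIST2 (17.8) came first and TCF4 (3.86) and ZEB2 (2.51) last, since TCF4 has transcripts up to 8343 bases and ZEB2 up to 9583. With the ZEB1 vector the median-length order was ZEB1 (3441 ± 1158 CPM per kilobase), TWIST2 (22.9 ± 9.14), TCF4 (20.6 ± 6.67), SNAI1 (13.6 ± 3.02), ZEB2 (11.1 ± 4.10), TWIST1 (9.10 ± 3.74), SNAI2 (2.77 ± 0.94) and PRRX1 (2.57 ± 0.64), SD, n = 3. The gaps below ZEB1 and below TWIST1 were the ones without overlap. DRUG-seq is generally described as reading transcript ends, for which length scaling would understate long transcripts, and the labels do not state where reads began.

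Genes around the members gave no calls in the edgeR test, and DESeq2 and limma-voom called none of them either, apart from genes of the mesenchymal list. DESeq2 set an adjusted p for few of these genes. The list of E proteins and ID inhibitors (dimer partners of the TWIST factors, and the proteins that sequester E proteins) had 8 genes. HAND1 and HAND2 among the 8 are neither E proteins nor ID inhibitors, and were not tested. Of the 8, 4 were tested and 0 were called, nor did any of the 4 have an unadjusted p under 0.05. Their median log2 fold change was 0.19. TCF3, the gene of E12 and E47, had 70.5 ± 22.7 CPM with the ZEB1 vector and 89.3 ± 6.45 CPM in controls (SD, n = 3 each), a log2 fold change of -0.31. The inhibitors ID3 and ID1 had log2 fold changes of 0.37 and 0.29.

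Of 23 other EMT-linked transcription factors, 17 were tested and 0 were called, with 1 of 17 lower at an unadjusted p under 0.05, near the 3.57% of all tested genes. That gene was TEAD4, a partner of YAP and TAZ named here after its values were seen, with a log2 fold change of -0.83. The list median was -0.06. FOXM1, a cell cycle factor, had a log2 fold change of -0.13, SOX4 -0.15 and the architectural factor HMGA2 -0.36 (84.4 ± 8.57 CPM with the ZEB1 vector and 108 ± 6.46 CPM in controls, SD, n = 3 each). Among those below the filter, named after their counts were seen, SNAI3, the third Snail gene, had 0 counts in each ZEB1 vector library and 1, 10 and 5 in controls. LEF1, a nuclear partner of beta-catenin, had 0 in each ZEB1 vector library and 1, 9 and 23 in controls, and the forkhead factor FOXC2 had 0, 0 and 1 with the ZEB1 vector and 13, 1 and 23 in controls. Set against library totals, the exact 95% limits for the ZEB1 vector over control ratio reached at most 0.712, 0.325 and 0.440 for SNAI3, LEF1 and FOXC2. Those limits cover counting error only, and the control libraries differed widely for all 3 genes.

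Transcription and splicing factors of the epithelial state, several of which oppose ZEB1 in mutual repression, had few counts. Of 16, 2 were tested, 0 were called and 0 had an unadjusted p under 0.05, and 4 were at 0 in every library. KLF4 had 7.78 ± 3.08 CPM with the ZEB1 vector and 7.35 ± 0.40 CPM in controls (SD, n = 3 each), GATA3 had 7.11, 1.93 and 1.49 CPM with the ZEB1 vector and 4.17, 2.01 and 2.12 CPM in controls, and FOXA1 had 4.44, 0 and 0.298 CPM with the ZEB1 vector and 1.44, 3.10 and 2.12 CPM in controls. The groups overlapped for GATA3 and FOXA1. OVOL1 and OVOL2 were among those at 0. EHF had 7, 6 and 3 counts in ZEB1 vector libraries and 0 in each control, and was named after its counts were seen. Of 17 epithelial genes known as ZEB1 targets, 4 were tested, 0 were called and 0 had an unadjusted p under 0.05; the desmosomal gene DSP had 49.6 ± 10.02 CPM with the ZEB1 vector and 59.3 ± 28.7 CPM in controls (SD, n = 3 each). The list median, over those 4 genes alone, was a log2 fold change of 0.89, with 3 above 0 and 1 below. Genes below the filter went both ways, and 2 are named after their counts were seen. CDH1 had 0 counts in each ZEB1 vector library and 0, 4 and 5 in controls. PRSS8 had 0, 0 and 7 counts with the ZEB1 vector and 1, 0 and 0 in controls. OCLN, a tight junction gene, had 7.11, 7.72 and 2.38 CPM with the ZEB1 vector and 3.53, 3.10 and 2.61 CPM in controls, a log2 fold change of 0.83 (SE 0.81). The polarity genes PATJ and LLGL2, the second named after its values were seen, had log2 fold changes of 0.94 (SE 1.17) and 1.13, on at most 16 counts a library.

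The miR-200 family, which represses ZEB1 and ZEB2 and is repressed by them, is shown as RefSeq mature sequences (GRCh38.p14), 5′ to 3′, with the seed, bases 2 to 8, in capitals. miR-200b and miR-200c share the seed AAUACUG, and miR-200a and miR-141 the seed AACACUG.
hsa-miR-200b-3p: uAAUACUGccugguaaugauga
hsa-miR-200c-3p: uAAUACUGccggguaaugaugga
hsa-miR-200a-3p: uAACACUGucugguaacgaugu
hsa-miR-141-3p: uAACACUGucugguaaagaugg

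The precursor genes of these 4 were at 0 in all 6 libraries, and of the 10 miR-200, miR-205 and miR-34 entries in the table the only counts were 3 of MIR205HG in ZEB1 vector replicate 3. An mRNA library does not measure mature miRNAs, so these counts say nothing of their levels.

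Of ubiquitin ligases, deubiquitinases and kinases that act on these proteins, 16 of 20 were tested and 0 were called, with a median log2 fold change of -0.02. At an unadjusted p under 0.05, 2 of the 16 were lower, where 3.57% of all tested genes were. FBXO45, part of a ligase that targets EMT transcription factors, had 34.3 ± 8.51 CPM with the ZEB1 vector and 53.9 ± 1.12 CPM in controls (SD, n = 3 each), a log2 fold change of -0.62. The other was MDM2, the p53 ligase, named after its values were seen, at -0.79. The deubiquitinase USP10 and the signalosome subunit COPS5 had log2 fold changes of 0.06 and 0.04.

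Genes of the wider region around ZEB1 on chromosome 10 were read as a description of that region, and they do not measure transcription of ZEB1 itself. Of 9, 8 were tested, 0 were called and 0 had an unadjusted p under 0.05. KIF5B lies at 32009015 to 32056425, ITGB1 at 32900318 to 32958230 and NRP1 at 33177493 to 33334667. The integrin gene ITGB1 had 300 ± 31.5 CPM with the ZEB1 vector and 299 ± 31.1 CPM in controls (SD, n = 3 each). The kinesin KIF5B had a log2 fold change of 0.17 and the semaphorin receptor NRP1 -0.06. ZNF438 (30844632 to 31032411) was named after its values were seen. It had 7.11, 9.003 and 3.28 CPM with the ZEB1 vector and 0.642, 1.82 and 2.94 CPM in controls. These rested on 8, 14 and 11 counts against 4, 10 and 18, with a log2 fold change of 1.79 (unadjusted edgeR p of 0.0609). ZNF438 was the 1 tested gene of the list with every ZEB1 vector library above every control, where 6.96% of all tested genes were. Of the 8, 5 had a log2 fold change above 0 and 3 below. The antisense and divergent RNAs were below the filter: SNAI3-AS1 had 7.11, 0 and 1.79 CPM with the ZEB1 vector and 0.481, 1.28 and 2.28 CPM in controls, and ZEB2-AS1 had 1 count in 1 control library.

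Mesenchymal genes that follow EMT had 17 of 19 members tested and 0 called, with a median log2 fold change of -0.27. With an unadjusted p below 0.05 there were 6 genes, of which S100A4 was higher in its mean and 5 were lower; over all tested genes 5.83% were higher and 3.57% lower at that level. In 6 of the 17 all ZEB1 vector libraries lay below all controls, where 8.16% of all tested genes did. VIM, the intermediate filament vimentin, had a log2 fold change of 0.07. FN1, fibronectin, had 668 ± 64.6 CPM with the ZEB1 vector and 841 ± 59.8 CPM in controls (SD, n = 3 each), a log2 fold change of -0.33. By DESeq2, 10 genes of the list had an adjusted p and 2 were called, ITGA5, an integrin gene, among them, out of 174 genes that DESeq2 called in all. The edgeR test called 2 of the list without ZEB1 vector replicate 3, ITGA5 again among them, out of 409 in all. limma-voom called 0 of the 17, or 1 with quality weights. Of the lower genes, ITGA5 (-0.54), COL1A1 (-0.33) and POSTN (-0.78), and the higher S100A4 (0.84) were named after their values were seen.

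**Figure D4:**
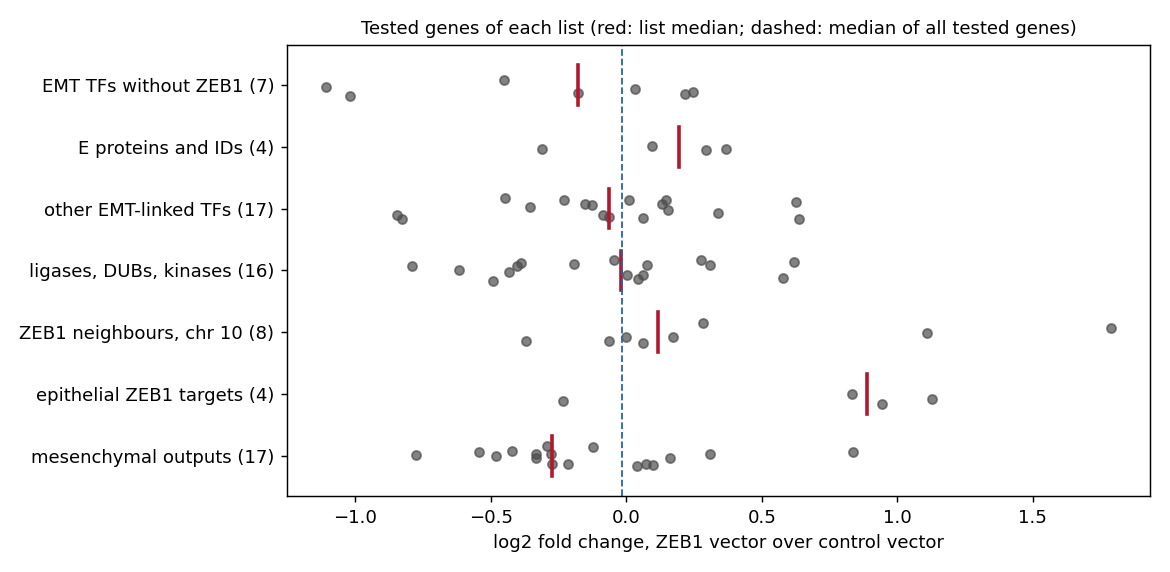
Log2 fold change, ZEB1 vector over control vector (x axis), of each tested gene in 7 lists (rows, with the number tested), with list medians in red and the median of all tested genes dashed. List medians run from -0.27 for the mesenchymal genes to 0.89 for the epithelial ZEB1 targets, of which 4 were tested.

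The tested genes whose log2 CPM followed ZEB1 most closely over the 6 libraries were RAB3D, SLC25A26, PLS1, TFAM and SP2, with Pearson r of 0.989 to 0.995, and those most opposed were IL11RA, ZNF8, LHPP, PTGER4 and RNF121, with r of -0.995 to -0.993. Because ZEB1 puts the libraries in 2 groups, r mainly follows the group difference, and it is a description over 6 libraries. RAB3D had 7.997, 7.72 and 6.55 CPM with the ZEB1 vector and 2.73, 2.92 and 2.77 CPM in controls, and TFAM, the best counted of the 10, had a log2 fold change of 0.26. IL11RA, ZNF8, LHPP and PTGER4 had 0 counts in all 3 ZEB1 vector libraries and 15 to 45 in each control. These genes passed the filter on low counts through the deeper control libraries alone. None of the 10 had an edgeR adjusted p under 0.05. Among the members SNAI2 (r of -0.93) and PRRX1 (-0.90) were the most opposed to ZEB1, and the other 5 lay between -0.57 and 0.38.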

How the data were processed

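RNA of TC28a2 cells was measured in 3 ZEB1 vector and 3 control vector libraries. The authors deposited raw counts per Entrez gene for each library. The submitters' processing notes list HISAT2, Subread, featureCounts and the build GRCh38, with no version of any tool. Annotation, strand setting and any use of molecular identifiers were not stated in any source used here, and without such identifiers counting intervals and floors are too narrow. RefSeq (GRCh38.p14) gave symbols for 27745 of 28395 IDs, and GENCODE v29 gave transcript lengths.

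Counts were fitted over all genes with edgeR 4.0.16 in R 4.3.3 (quasi-likelihood test, robust dispersions, TMM, filterByExpr, group as the only term), with two-sided p-values adjusted by Benjamini-Hochberg over 11329 tested genes. All adjusted p-values come from this fit unless another tool is named. Standard errors and 95% intervals were derived approximately, from each log2 fold change divided by the square root of F. Log2 CPM used a prior count of 2. With 3 against 3 libraries an exact permutation test cannot go below 0.1, so none was used. The fit was tested on simulated data.

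The members and gene lists were chosen with earlier results of these data known. Named genes were the 8 members, the 3 genes of each list with the highest mean CPM, and the 5 genes most and least like ZEB1; exceptions are marked, and some listed genes are not reported here. Alternatives were library size alone, upper-quartile and RLE factors, other filters, thinning, ZEB1 left out of the table, dispersions without robust estimation, DESeq2 1.42.0, limma-voom (limma 3.58.1) with and without quality weights, a replicate block and leaving out each library. ZEB1 vector replicates 1 and 2 were left out together as an alternative chosen after seeing the data.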

Additional observations from a re-analysis of the deposited data

How the results depend on the processing

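ZEB1 was called in all 18 alternatives that test it (log2 fold change 8.10 to 9.03), and none of the other 7 members was called in any, so that 1 member was called wherever ZEB1 was kept in the table. DESeq2 gave no adjusted p for those 7. The count of called genes was 127 without a low-count filter, 174 with DESeq2, 22 with limma-voom and 157 with quality weights, against 1; on leaving out single libraries it was 1 to 409, the higher value without ZEB1 vector replicate 3, and it was 2 without ZEB1 vector replicates 1 and 2 together. When ZEB1 was left out, edgeR called 0 genes, DESeq2 was not run, and 660 genes lay above and 405 below with an unadjusted p below 0.05.

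Among members, PRRX1 (-1.37 to -0.91), SNAI2 (-1.41 to -0.62) and SNAI1 (-0.77 to -0.29) kept their direction in all 19 alternatives. TCF4 reversed with library size alone (-0.087), thinning (-0.091) and the replicate block (-0.014), and ranged from -0.24 to 0.23 on leaving out single libraries. ZEB2 (-0.072 to 0.44), TWIST1 (-0.63 to 0.054) and TWIST2 (-0.16 to 0.48) changed sign on leaving out single libraries, and were -0.15, 0.32 and -0.37 without ZEB1 vector replicates 1 and 2 together. The cause was not tested. With library size alone the median over all tested genes shifted to -0.14, against -0.01.

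Replicate numbers are shared between groups, but same-numbered libraries did not deviate together (r of -0.03, -0.01 and 0.01), so the numbers were not taken as pairs. With the replicate block 1 gene was called, ZEB1. SNAI2 and PRRX1 rested on 5 to 26 counts a library with the ZEB1 vector. Lengths from the longest transcript changed the order of the members per kilobase, as given above, and CPM without length scaling is given for each member.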
